A study of Mus musculus with 4 samples.

Results

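The 10 genes Zbtb16, Tsc22d3, Fkbp5, Per1, Cdkn1c, Sgk1, Klf9, Dusp1, Hsd11b1 and Errfi1 are known as targets or mediators of glucocorticoid hormones. They were taken by name from the 31053 genes in the deposited tables, and each was found once. The list was chosen with earlier results of these data known. They were followed in single stromal vascular cells, the non-fat-cell fraction released by digesting subcutaneous fat of female mice. The 4 groups were Cth+/+ mice on a control diet, Cth+/+ mice on a cystine-free diet, Cth-/- mice on the control diet and Cth-/- mice on the cystine-free diet, each fed for 4 days. Cth encodes cystathionine gamma-lyase, which makes cysteine from cystathionine, so the design sets the loss of this source of cysteine beside the loss of dietary cystine, each alone and combined. The sample labels write cysteine-free and the protocol cystine-free. Depots were pooled before digestion, and ages and the number of animals are not given in the sources used here. The labels name no hormone treatment, and hormone levels were not analysed here.

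Glucocorticoids (corticosterone in mice) cross the cell membrane and bind the glucocorticoid receptor, Nr3c1, which Hsp90 chaperones hold in the cytoplasm. The bound receptor enters the nucleus, binds as a dimer to palindromes of the site AGAACA and switches genes on, or holds inflammatory genes down together with other factors. In fat, fasting and stress raise the hormone, and the enzyme Hsd11b1 regenerates it inside the cell from its inactive form. Several of the 10 genes answer other signals too, among them growth factors, the circadian clock and tissue digestion.

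With 1 library in each group, nothing was tested: the intervals (95%) cover counting error alone, and diet, genotype and library cannot be told apart. The libraries held 7175, 7312, 6353 and 4394 barcodes with 24395501, 30944977, 26278510 and 15948807 UMIs (unique molecular identifiers, 1 for each captured RNA molecule), always with the Cth+/+ libraries first and, within a genotype, the control diet first. Cth gave 9, 11, 0 and 0 UMIs. Barcodes were assigned to cell types by marker UMIs. The progenitor gate (Dcn, a proteoglycan of fibroblast-like cells, at 0.2% of UMIs or more) held 3176, 3233, 3467 and 1612 barcodes, with median depths of 3214, 4428, 4308 and 3064 UMIs. Of 24922 distinct barcode sequences, 311 occurred in more than 1 library.

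Markers that the gates did not use matched 5 of the 6 names. Levels are given as CPM, UMIs per 1000000 UMIs of the gate in that library, and are compared between libraries and gates, not between genes. Progenitor markers such as Pdgfra and Lum summed to 21249.6 to 32704 CPM in the progenitor gate, endothelial markers to 6436 to 8542 in the endothelial gate, phagocyte markers to 16321 to 22447 in the phagocyte gate, and epithelial markers to 4238 to 7205 in the epithelial gate. The T cell gate had 1626 to 2027 for T cell markers and 532 to 1236 for NK cell markers. The gate set by Rgs5 and Notch3, meant for mural cells, had 655 to 1143 for mural and 2738 to 5233 for endothelial markers, and 376, 474, 138 and 112 of its 494, 561, 170 and 121 barcodes also met another gate. It is called the Rgs5 and Notch3 gate here, and no mural result is drawn from it.

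Promoter windows of RefSeq (GRCm38.p6, the build of mm10), each reaching from 250 bases before a transcript start to 50 after, were on hand for 8 of the 10 members, with 17 windows in all. They are shown because the receptor and the other regulators of these genes bind such sequences. The windows were searched on both strands for the receptor's single site AGAACA (read as TGTTCT on the other strand), its full palindrome (both forms in that order with any 3 bases between them), the E-box CACGTG of clock factors and TGACGTCA, the cyclic AMP response element. The full palindrome occurred in 1 member window, at Sgk1, and in 3 of 32851 windows of the whole table (0.00913%), the others belonging to Acnat2 and Gm35041. The single site was in 19% of all windows, CACGTG in 7.15% and TGACGTCA in 1.79%. Among the members, the single site was in windows of Tsc22d3 and Sgk1. CACGTG was in windows of Fkbp5, Per1, Sgk1 and Dusp1, and TGACGTCA in windows of Dusp1 and Errfi1. Not every window with a match is printed. The bases before the start are printed 5′ to 3′ on the gene's strand, with motif letters in capitals. The Sgk1 window lies at chr10:21993640-21993889 (plus strand), within an intron of longer Sgk1 transcripts, and its first capital run joins CACGTG and the single site TGTTCT, which overlap. The Fkbp5 window is chr17:28486150-28486399 (minus strand), that of Per1 chr11:69098699-69098948 (plus strand) and that of Errfi1 chr4:150854820-150855069 (plus strand). A match describes these letters only and shows no binding.
Sgk1: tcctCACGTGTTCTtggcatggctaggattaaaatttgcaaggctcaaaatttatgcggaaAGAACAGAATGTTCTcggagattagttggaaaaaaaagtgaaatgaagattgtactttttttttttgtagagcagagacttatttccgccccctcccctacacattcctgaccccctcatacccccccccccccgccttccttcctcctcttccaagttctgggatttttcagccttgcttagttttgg
Fkbp5: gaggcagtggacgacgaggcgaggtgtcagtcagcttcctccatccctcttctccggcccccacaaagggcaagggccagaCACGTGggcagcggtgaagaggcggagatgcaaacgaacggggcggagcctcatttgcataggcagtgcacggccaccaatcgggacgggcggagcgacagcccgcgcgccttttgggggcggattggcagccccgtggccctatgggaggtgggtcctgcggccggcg
Per1: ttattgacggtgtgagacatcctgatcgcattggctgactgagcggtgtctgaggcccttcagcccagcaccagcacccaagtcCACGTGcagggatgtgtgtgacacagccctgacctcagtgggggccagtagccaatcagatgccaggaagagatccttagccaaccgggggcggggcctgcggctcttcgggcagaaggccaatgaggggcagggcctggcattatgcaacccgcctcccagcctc
Errfi1: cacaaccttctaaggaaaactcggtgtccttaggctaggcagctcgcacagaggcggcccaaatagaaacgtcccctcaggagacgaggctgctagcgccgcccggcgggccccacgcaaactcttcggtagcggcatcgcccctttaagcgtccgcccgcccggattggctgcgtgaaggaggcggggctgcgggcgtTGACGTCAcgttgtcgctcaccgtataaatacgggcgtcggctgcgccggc

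In progenitor-gate barcodes of Cth-/- mice, 5 of the 10 members were at least 1.5-fold higher on the cystine-free than on the control diet, and 1 was at least 1.5-fold lower. Higher were Zbtb16, Tsc22d3, Fkbp5, Sgk1 and Errfi1, and Cdkn1c was lower. Of 7982 genes with a mean of at least 10 CPM over the 4 libraries, 7.15% were higher and 9.73% lower by this fold. All 10 members passed that minimum; Zbtb16 did so only through the Cth-/- cystine-free library, where it is high, and so had to differ. The median log2 ratio of the members was 0.57, beside -0.0078 over all these genes. As the members were chosen with earlier results of these data known, their counts and medians describe the list and are no test of it. For 8 members the Cth-/- cystine-free library had the highest level of the 4, which was so for 36.5% of all these genes. It stood at least 1.5-fold above each of the other 3 for Zbtb16, Fkbp5, Sgk1 and Errfi1 (4.56% of genes) and as far below each of them for Cdkn1c (7.32%).

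**Figure D1:**
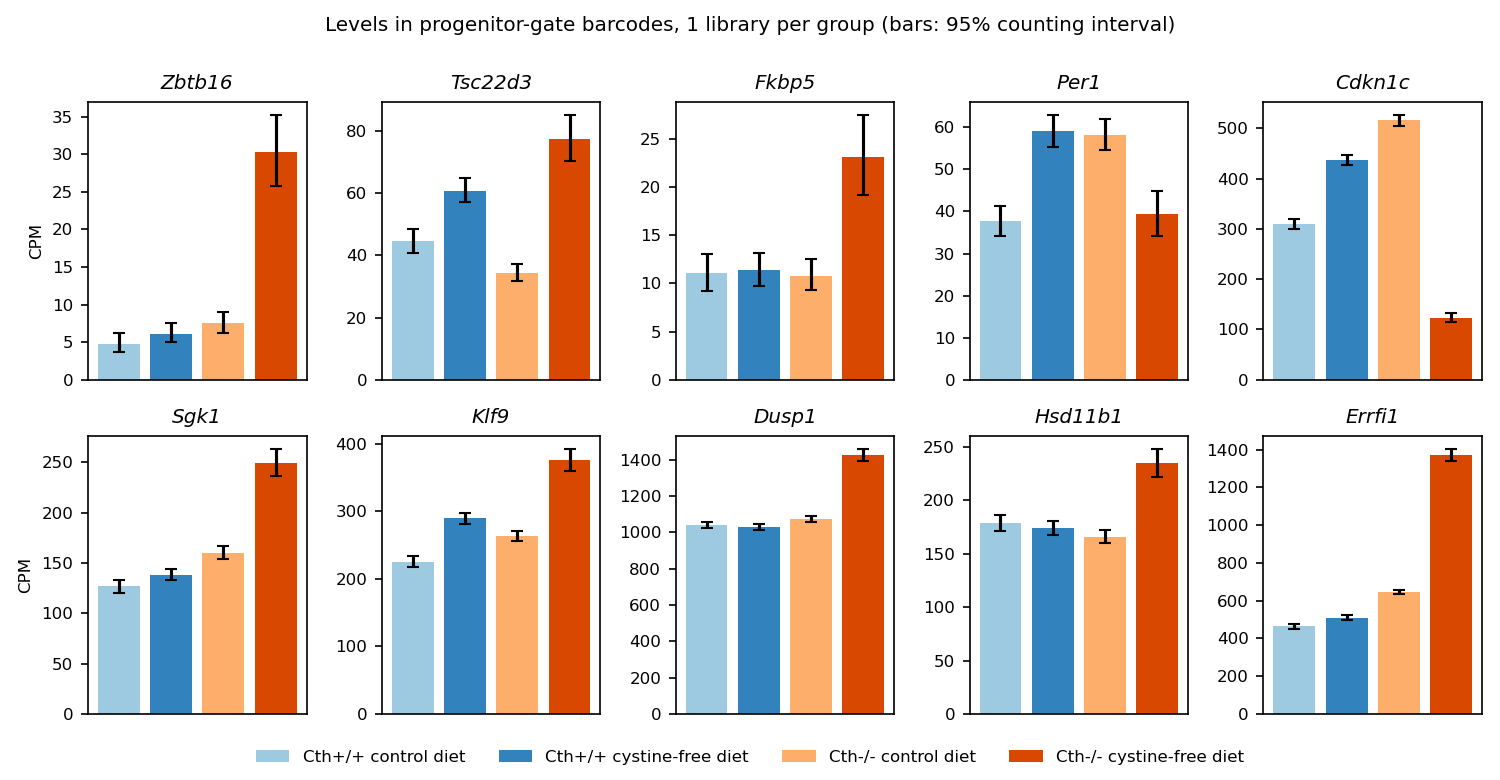
Levels of the 10 members in progenitor-gate barcodes, in CPM, with 1 bar per library and 95% counting intervals; each axis starts at 0. The Cth-/- cystine-free bar is the highest in 8 panels and the lowest for Cdkn1c.

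Hsd11b1, the reductase that regenerates active hormone in the cell (chromosome 1, 193221634 to 193264075, minus strand, GENCODE M21 on GRCm38, as for all positions below), stood at 179, 174, 166 and 234 CPM in progenitor-gate barcodes. The first 3 libraries lay close together and the Cth-/- cystine-free library above them, with a log2 diet ratio of 0.50 (0.40 to 0.60) in Cth-/- and -0.041 (-0.12 to 0.042) in Cth+/+. Of 8 names listed for steroid metabolism at the cell, 3 were measured, Hsd11b1 among them. In Cth-/- on the cystine-free diet 0 of these were at least 1.5-fold higher and 0 lower (median log2 ratio 0.50, that of Hsd11b1 itself). Hsd11b2, also listed, was under 10 CPM and thus not counted. It gave 61, 99, 92 and 1 UMIs, or 5.14, 6.28, 5.61 and 0.184 CPM, lowest in the Cth-/- cystine-free library. Hsd11b1 was a progenitor gene among the gates: the endothelial, phagocyte, epithelial and Rgs5 and Notch3 gates had 8.27 to 18.6 CPM on average over the 4 libraries. The T cell gate had 63.1, 56.8, 46.5 and 46.7. Per 1000 Dcn UMIs, Hsd11b1 gave 17.4 to 22.0 UMIs in the progenitor gate, 19.9 to 47.5 in the phagocyte gate and 49.3 to 62.5 in the T cell gate. It gave 16.2 to 45.7 in the endothelial, 15.1 to 41.7 in the epithelial and 21.8 to 58.8 in the Rgs5 and Notch3 gate. The T cell ratio was the highest of all gates in each library. In the Cth-/- cystine-free library it was close to that of the Rgs5 and Notch3 gate (62.1 and 58.8). The gene overlaps Lamb3 on the opposite strand, and whether the authors' counting used strand is not given in the sources used here.

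The receptor gene itself was at like levels on both diets in progenitor-gate barcodes. Nr3c1 stood at 122, 119, 107 and 106 CPM, with a log2 diet ratio of -0.021 in Cth-/- and -0.035 in Cth+/+. Both Cth-/- levels were below both Cth+/+ levels. On the control diet the counting intervals lay apart (103 to 113 in Cth-/- and 115 to 128 in Cth+/+). Of 11 measured genes of 12 for receptors, chaperones and coregulators, 1 was at least 1.5-fold higher in Cth-/- on the cystine-free diet and 0 lower. That 1 was Hsp90aa1, the stress-inducible Hsp90 chaperone, at 764 against 373 CPM (1.03).

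Fkbp5 encodes an Hsp90 co-chaperone that lowers the receptor's affinity for hormone, and its induction is a classical feedback of the pathway (chromosome 17, 28399094 to 28517527, minus strand). It stood at 11.0, 11.3, 10.8 and 23.1 CPM in progenitor-gate barcodes. The first 3 libraries had overlapping counting intervals and the Cth-/- cystine-free library lay apart from them. The log2 diet ratio was 1.03 (0.75 to 1.43) in Cth-/- and 0.038 (-0.29 to 0.38) in Cth+/+. Tsc22d3, the leucine zipper protein GILZ that restrains inflammatory transcription factors (chromosome X, 140539528 to 140600659, minus strand), stood at 44.5, 60.9, 34.4 and 77.5. It was higher on the cystine-free diet in both genotypes, with log2 ratios of 1.15 (0.98 to 1.35) in Cth-/- and 0.44 (0.30 to 0.61) in Cth+/+. On the control diet it was lower in Cth-/- than in Cth+/+ (-0.36, -0.54 to -0.20), so that the Cth-/- diet ratio starts from the lowest of the 4 levels.

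Zbtb16, the zinc finger transcription factor PLZF, whose induction by the receptor is strong in many cell types (chromosome 9, 48654297 to 48836222, minus strand), had the highest ratio of the members. Its levels were 4.80, 6.15, 7.56 and 30.3 CPM, from 57, 97, 124 and 164 UMIs. The Cth-/- cystine-free library stood apart from and above the next. The log2 diet ratio of 1.87 (1.66 to 2.35) in Cth-/- ranked 22 of 7982 genes. As said above, Zbtb16 passed the minimum level only through that library and had to differ, so its rank is no test. In Cth+/+ the ratio was 0.30, with a counting interval from -0.13 to 0.86 that holds 0. The UMIs were spread over barcodes: 148 of 1612 progenitor-gate barcodes of the Cth-/- cystine-free library had at least 1 (9.18%), no barcode had more than 3, and in the Cth-/- control library 3.37% had 1. With each barcode thinned to 1000 UMIs these shares were 2.72% (1.96 to 3.67, Clopper-Pearson) and 0.856% (0.570 to 1.24). In phagocyte-gate barcodes, where the mean level was lowest of the 6 gates, the thinned shares were 0.645% and 0.263%.

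Klf9, a Krüppel-like transcription factor that the receptor induces (chromosome 19, 23141226 to 23168134, plus strand), stood at 225, 289, 264 and 375 CPM. It was higher on the cystine-free diet in both genotypes without reaching 1.5-fold, with log2 ratios of 0.51 (0.43 to 0.59) in Cth-/- and 0.36 (0.29 to 0.43) in Cth+/+. Per1, a repressor of the circadian clock that the hormone resets through its promoter region (chromosome 11, 69095217 to 69109960, plus strand), went another way. Its levels were 37.6, 59.0, 58.2 and 39.3: high in the Cth+/+ cystine-free and Cth-/- control libraries, low in the other two. The log2 diet ratio was 0.64 (0.48 to 0.82) in Cth+/+ and -0.56 (-0.79 to -0.35) in Cth-/-, opposite in sign. The hour at which tissues were collected is not given in the sources used here, and its part was not tested.

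Dusp1, a phosphatase that switches off p38 and JNK kinases and is both a receptor target and an early response gene (chromosome 17, 26505590 to 26562128, minus strand, overlapping Ergic1 on the opposite strand), stood at 1039.9, 1027, 1073 and 1425 CPM. Its 2 Cth+/+ levels were alike, and the ratio in Cth-/- was 0.41 (0.37 to 0.45), under 1.5-fold. Errfi1, an inhibitor of the EGF receptor (chromosome 4, 150853919 to 150868892, plus strand), stood at 465, 511, 645 and 1372. The Cth-/- cystine-free level was more than 2-fold that of the Cth-/- control library (log2 ratio 1.09, 1.05 to 1.13), and the Cth-/- control level was above both Cth+/+ levels. Sgk1, a kinase that regulates ion channels and survival and is induced early by the hormone (chromosome 10, 21882184 to 21999903, plus strand), stood at 127, 138, 160.3 and 249. Its order was the same as that of Errfi1, with a log2 ratio of 0.63 (0.54 to 0.73) in Cth-/- and 0.13 (0.031 to 0.22) in Cth+/+.

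Cdkn1c, the cell cycle inhibitor p57, an imprinted gene that glucocorticoids induce in several cell types (chromosome 7, 143458339 to 143461050, minus strand), was the member at least 1.5-fold lower. The annotation places the antisense gene Gm44732 over it. It stood at 309, 437, 516 and 124 CPM, with the highest level in the Cth-/- control and the lowest in the Cth-/- cystine-free library. The log2 diet ratio was -2.05 (-2.18 to -1.95) in Cth-/- and 0.50 (0.44 to 0.56) in Cth+/+. A small set of rich barcodes carried much of its RNA. Barcodes with at least 10 Cdkn1c UMIs numbered 78 of 3176, 164 of 3233 and 223 of 3467 in the first 3 libraries (2.46%, 5.07% and 6.43%) and held 40.1%, 60.6% and 57.0% of the gate's Cdkn1c UMIs. In the Cth-/- cystine-free library they numbered 0 of 1612, which at 3 counts of the total allows a share of up to 0.186%. With barcodes thinned to 1000 UMIs, those with at least 5 Cdkn1c UMIs numbered 26, 43, 67 and 0 of 2924, 3089, 3270 and 1508 barcodes. Cdkn1c RNA was present in that library at a low level: 469 barcodes (29.1%) had at least 1 UMI and none had more than 7.

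The other 3 comparisons in progenitor-gate barcodes share libraries with the first and are given beside it. For the diet in Cth+/+ mice, 1 of 10 members (Per1) was at least 1.5-fold higher and 0 lower, where 0.802% and 1.12% of all measured genes were. The members' median was 0.22 beside -0.074 over all genes. For the loss of Cth on the control diet, Per1 (0.62) and Cdkn1c (0.74) were at least 1.5-fold higher and 0 lower, with 0.664% and 1.15% of genes and medians of 0.28 and -0.051. For the loss of Cth on the cystine-free diet, Zbtb16 (2.13, and bound to differ as said above), Errfi1 (1.42), Fkbp5 (0.96) and Sgk1 (0.84) were higher. Cdkn1c (-1.81) was lower, with 10% and 11% of genes and medians of 0.45 and 0.013. Tsc22d3 was 0.34 (0.18 to 0.52) there, since its Cth+/+ level also was higher on this diet.

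On the log2 scale, the diet ratio of Cth-/- exceeded that of Cth+/+ by 1.57 (0.99 to 2.15) for Zbtb16, 0.99 (0.53 to 1.45) for Fkbp5, 0.95 (0.89 to 1.02) for Errfi1 and 0.70 (0.47 to 0.94) for Tsc22d3. The difference was 0.54 (0.41 to 0.67) for Hsd11b1, 0.51 (0.37 to 0.64) for Sgk1, 0.43 (0.38 to 0.48) for Dusp1 and 0.15 (0.048 to 0.25) for Klf9. Klf9 thus had the smallest difference between the genotypes. For Per1 the difference was -1.19 (-1.46 to -0.92) and for Cdkn1c -2.55 (-2.68 to -2.42). The 2 diet ratios of these genes have opposite signs. These differences have counting intervals and no test.

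**Figure D2:**
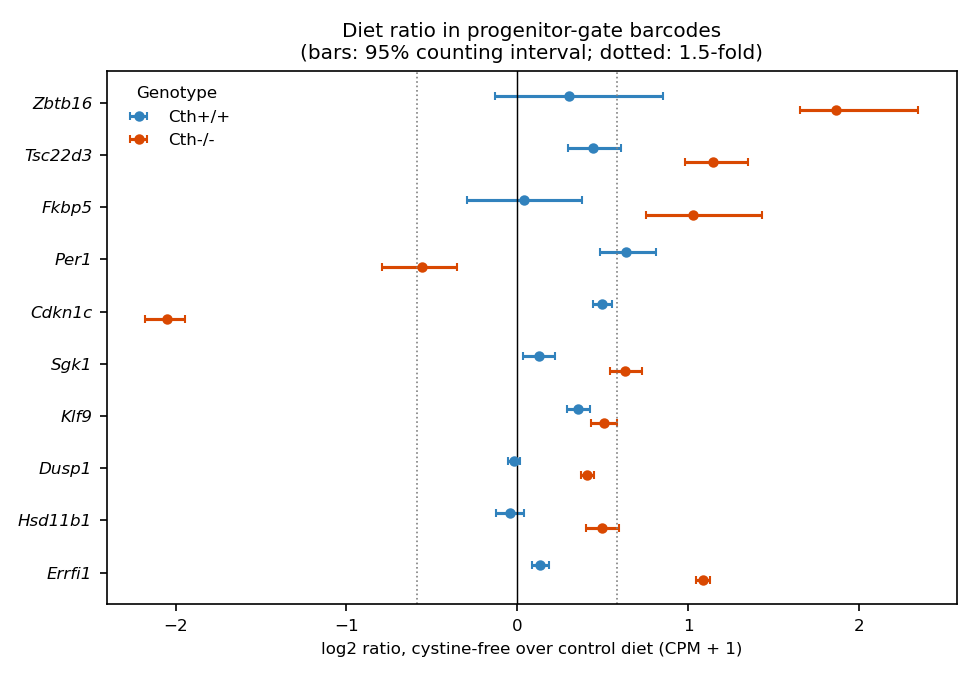
Log2 ratios of the cystine-free over the control diet in progenitor-gate barcodes for Cth+/+ (blue) and Cth-/- (orange), with 95% counting intervals and dotted lines at 1.5-fold. The orange point lies right of the blue one for 8 genes and left of it for Per1 and Cdkn1c.

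The gates differed in their levels of these genes. The means over the 4 libraries, in CPM from the highest gate to the lowest, were for Tsc22d3 phagocyte (156), T cell (128), endothelial (61.8), progenitor (54.3), Rgs5 and Notch3 (51.1) and epithelial (23.4) (the ranges of the 4 libraries overlapped between phagocyte and T cell, and among endothelial, progenitor, and Rgs5 and Notch3 gates). For Dusp1 they were phagocyte (2410.2), progenitor (1141), endothelial (970.2), Rgs5 and Notch3 (742), T cell (370.4) and epithelial (339.6), with the phagocyte range apart from the rest. Phagocytes thus had the highest mean of both of these inhibitors of inflammatory signalling, and of the clock gene Per1 at 86.7, although every pair of neighbouring gates overlapped for Per1. For Sgk1 the order was endothelial (688), Rgs5 and Notch3 (479), epithelial (237), progenitor (169), phagocyte (95.5) and T cell (61.4), and the top 2 overlapped. The progenitor gate led for Errfi1 (748, next phagocyte at 227), Cdkn1c (346, next endothelial at 162), Klf9 (288, next endothelial at 185) and Hsd11b1 (188, next T cell at 53.3). Zbtb16 and Fkbp5 were low in every gate, with means of 3.98 to 12.2 and 6.15 to 17.2, and neighbouring gates overlapped throughout. The progenitor range was apart from that of the next gate for Errfi1, Klf9 and Hsd11b1 and overlapped it for Cdkn1c.

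Across the gates, Fkbp5 was at least 1.5-fold higher for the diet in Cth-/- in 5 of the 5 gates where it was measured, with log2 ratios besides the progenitor gate of 0.91 (0.24 to 1.75) in the endothelial, 1.63 (1.12 to 2.44) in the phagocyte, 1.25 (0.12 to 2.65) in the Rgs5 and Notch3 and 2.45 (0.084 to 8.16) in the T cell gate. The last rests on 1 UMI in the Cth-/- control library. In the phagocyte gate, at 8.50, 7.49, 7.01 and 23.8 CPM, Fkbp5 passed the minimum only through the Cth-/- cystine-free library, so that it had to differ there. In the epithelial gate Fkbp5 had a mean under 10 CPM and gave 21, 17, 15 and 6 UMIs (ratio -0.50, -2.28 to 0.82). Of all measured genes, 4.54% were this much higher in the endothelial, 4.47% in the phagocyte, 16.2% in the Rgs5 and Notch3 and 15% in the T cell gate. For the diet in Cth+/+, the Fkbp5 ratio was 0.93, -0.17 to 2.19 in the T cell, -0.094, -0.60 to 0.40 in the endothelial and -0.16, -0.98 to 0.63 in the phagocyte gate.

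Over all barcodes of the libraries, 3 of 9 measured members (Tsc22d3, Fkbp5 and Sgk1) were at least 1.5-fold higher and 1 (Cdkn1c) lower for the diet in Cth-/-, where 9.27% and 9.04% of genes were. Fkbp5 stood at 10.1, 11.0, 9.86 and 20.9 CPM there and Tsc22d3 at 57.8, 76.7, 54.2 and 94.4, the Cth-/- cystine-free library being the highest for both. The Errfi1 ratio was 0.28 there. In the Rgs5 and Notch3 gate Tsc22d3 (0.65), Fkbp5 and Klf9 (1.03) were higher and 0 lower, where 16.2% and 11.5% of genes were.

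In phagocyte-gate barcodes 3 of 9 measured members were at least 1.5-fold higher in Cth-/- on the cystine-free diet: Fkbp5, Tsc22d3 and Dusp1, the last only just, where 4.47% of genes were. Fkbp5 was bound to be among them, as said. Tsc22d3 stood at 131, 144, 132 and 217 CPM and Dusp1 at 2301, 1976, 2145 and 3219, with the Cth-/- cystine-free library highest for both (ratios 0.71 and 0.59). The 9 adipocyte markers summed to 55.4, 41.4, 104 and 1652 CPM in these barcodes, to 688, 297, 1754 and 2832 in the endothelial and to 63.6, 28.3, 58.5 and 2167 in the epithelial gate, and were thus highest in the same library; their part in the ratios was not tested. Lower was Cdkn1c, at 26.2, 25.3, 29.9 and 12.1, where 7.14% of genes were. That is 5.79 to 9.78% of its progenitor level, and Dcn in the same barcodes was at 3.66 to 10.5% of its own progenitor level; the part of free RNA was not tested.

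In endothelial-gate barcodes 1 of 9 measured members, Fkbp5, was at least 1.5-fold higher in Cth-/- on the cystine-free diet and 0 were lower, where 4.54% and 8.72% of genes were. Zbtb16, with a mean under 10 CPM, gave 19, 19, 5 and 57 UMIs there, or 4.37, 2.86, 2.97 and 17.1 CPM (diet ratio in Cth-/- 2.19, 1.22 to 4.21). In barcodes that met no other gate the counts in the Cth-/- libraries were 1 and 46 UMIs (3.22, 1.53 to 9.41). Cdkn1c was at a like level in all 4 libraries of this gate, at 151, 137, 169 and 189 CPM (ratio 0.16, -0.044 to 0.37). Sgk1 was highest in endothelial barcodes among the gates, at 600.3, 504, 801 and 849, with the 2 Cth-/- libraries above the 2 Cth+/+ libraries and a diet ratio in Cth-/- of 0.084. The same grouping by genotype held there for Errfi1 (114, 107, 197 and 183) and Dusp1 (857, 756, 1119 and 1149). On the cystine-free diet 5 of 9 members were at least 1.5-fold higher in Cth-/- than in Cth+/+ endothelial barcodes, where 10.1% of genes were. Of 20 immediate early genes, which digestion of tissue also induces, 11 were higher and 0 lower there. Their median log2 ratio was 0.62, beside 0.60 for the measured members. These genes made up a median of 1.93, 1.81, 2.63 and 2.75% of UMIs per endothelial barcode, the same grouping by genotype. The part of digestion was not tested.

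In the T cell and epithelial gates totals were small. T cell barcodes of the Cth-/- libraries had 301346 and 706575 UMIs, and 15% of measured genes passed 1.5-fold upward and 20.8% downward, so that 1 member higher (Fkbp5) and 1 lower (Cdkn1c) of 9 is near that background. In the epithelial gate 1 of 7 measured members was higher, Dusp1 (0.86, 0.72 to 1.00), and 1 lower, Cdkn1c (-1.09, -2.04 to -0.38), where 8.63% and 8.96% of genes were. Cdkn1c was at 5.15 to 12.3% of its progenitor level in T cell barcodes, and Dcn there at 7.06 to 13.9% of its own. In epithelial barcodes these shares were 3.44 to 7.42% and 1.82 to 5.75%. The part of free RNA was not tested here either. Tsc22d3 in T cell barcodes was 89.3, 179, 109.5 and 133 CPM, and there the diet ratio was larger in Cth+/+ (1.00, 0.56 to 1.46) than in Cth-/- (0.28, -0.31 to 0.90), with wide intervals.

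**Figure D3:**
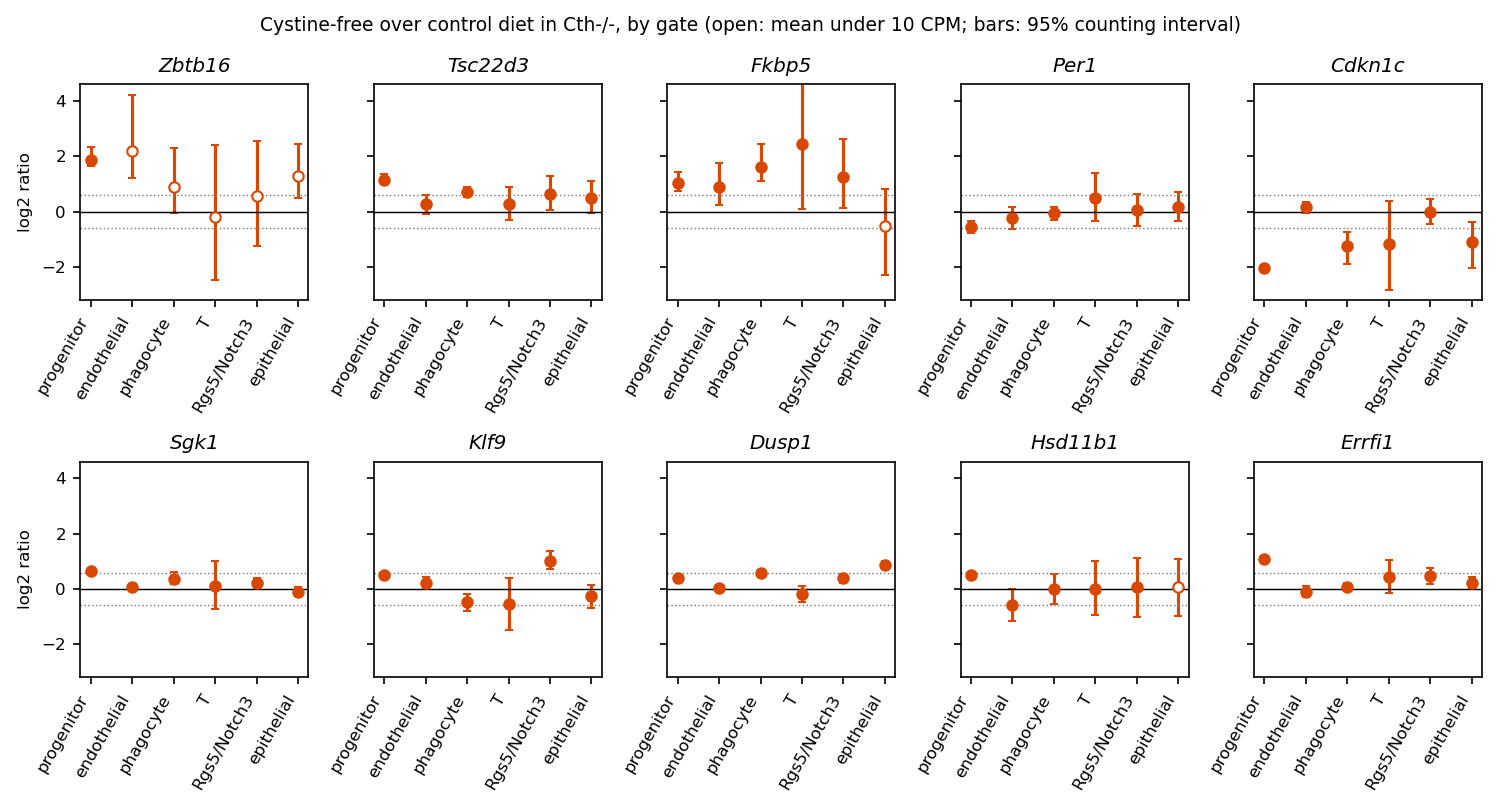
Log2 ratios of the cystine-free over the control diet in Cth-/- for each member in 6 gates, with 95% counting intervals, open points where the mean level was under 10 CPM, and dotted lines at 1.5-fold. Fkbp5 lies above the upper line in 5 gates (its T cell interval runs off the axis to 8.16), while Cdkn1c lies below 0 in 4 gates and near 0 in the endothelial and the Rgs5 and Notch3 gates.

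The ratios were also read within subsets of the progenitor gate. Pi16 and Dpp4 mark the interstitial progenitors of fat. Barcodes with at least 2 UMIs of the pair numbered 1362 and 769 in the Cth-/- control and cystine-free libraries, and those with 0 numbered 1507 and 676; these counts move with depth. Sgk1 differed between the diets in the second set and not beyond counting error in the first. With 0 Pi16 and Dpp4 UMIs, Sgk1 stood at 427 against 163 CPM (1.39, 1.25 to 1.53), and with at least 2 at 142 against 155 (-0.12, -0.29 to 0.034). Per1 was lower in the barcodes with 0 UMIs (-1.14, -1.61 to -0.74) and was -0.036 (-0.32 to 0.24) in the other. Tsc22d3 was higher in both, with ratios of 1.58 (1.33 to 1.89) and 0.84 (0.57 to 1.14). So was Zbtb16, with 2.03 (1.51 to 3.01) and 1.69 (1.36 to 2.20).

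Fkbp5 stood at 26.5 against 11.1 CPM in barcodes with at least 2 UMIs of Pi16 and Dpp4 (1.18, 0.80 to 1.71) and at 16.2 against 11.4 in those with 0, where the interval of the ratio holds 0 (0.46, -0.19 to 1.15). Errfi1 was more abundant in barcodes with at least 2 UMIs of the pair in every library. Its Cth-/- levels there were 1980.2 and 1011 (0.97, 0.92 to 1.02), beside 511 and 316 in barcodes with 0 (0.69, 0.57 to 0.81). Cdkn1c had the opposite distribution, with 789 CPM in barcodes with 0 and 247 in those with at least 2 in the Cth-/- control library. It was lower on the cystine-free diet in both, with ratios of -2.39 (-2.58 to -2.22) and -1.20 (-1.38 to -1.04).

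Immediate early genes, which digestion of tissue also induces, made up a median of 2.30, 2.56, 2.49 and 3.70% of UMIs per progenitor-gate barcode, highest in the Cth-/- cystine-free library. Among barcodes at or below the median share over all 4 libraries, 1867 and 441 in the Cth-/- libraries, the diet ratio was 1.72 (1.27 to 2.45) for Zbtb16, 0.85 (0.32 to 1.48) for Fkbp5, 0.71 (0.37 to 1.08) for Tsc22d3 and 0.71 (0.63 to 0.79) for Errfi1. All 4 were above 0 there and smaller than over the whole gate. The 9 adipocyte markers summed to 389 CPM in the progenitor gate of the Cth-/- cystine-free library and 85.2 in that of the Cth-/- control library. In barcodes without a UMI of 8 of these markers (Cfd left aside), a subset chosen after the data were seen, the ratios were 1.84 for Zbtb16, 1.27 for Tsc22d3, 0.99 for Fkbp5 and 0.57 for Hsd11b1. In the 62 barcodes of that library with at least 5 UMIs of the adipocyte hormone gene Adipoq, Zbtb16 stood at 7.41, Tsc22d3 at 9.43, Fkbp5 at 27.6 and Hsd11b1 at 364 CPM. Of these, Hsd11b1 and Fkbp5 were above their level in progenitor-gate barcodes of the library, and Zbtb16 and Tsc22d3 below it.

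**Figure D4:**
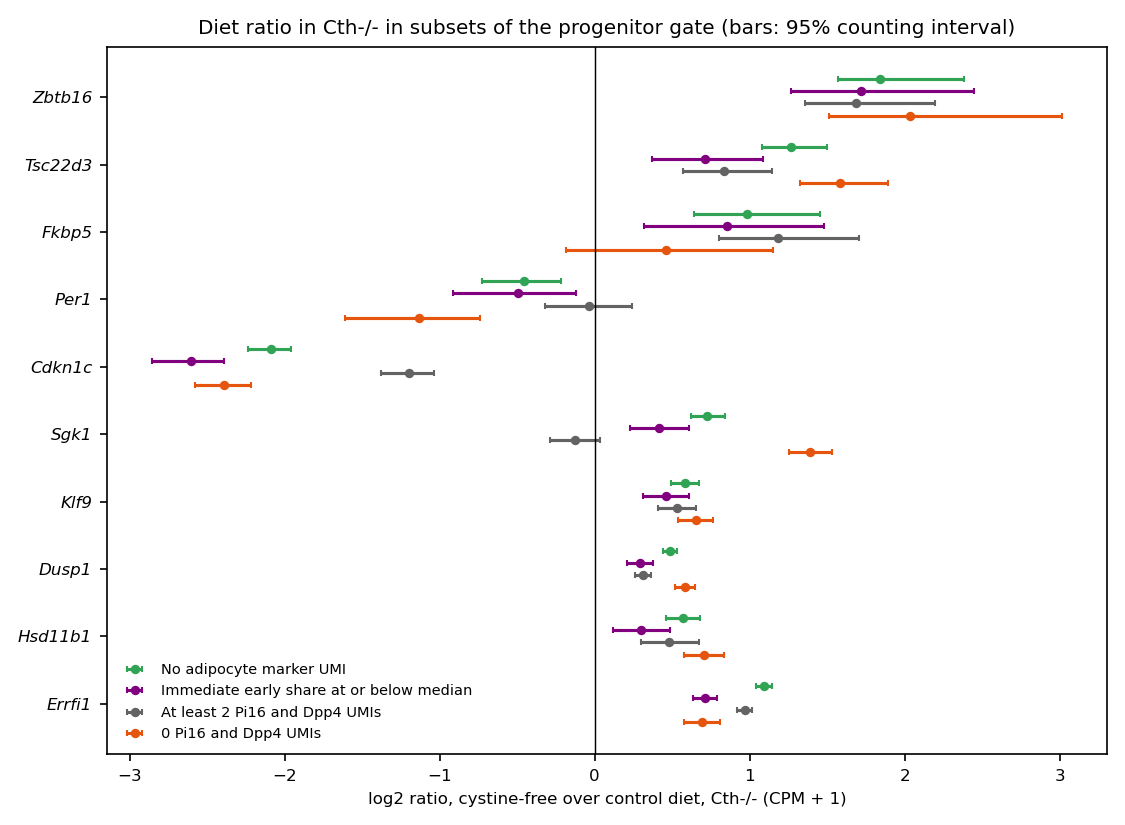
Log2 ratios of the cystine-free over the control diet in Cth-/- for 4 subsets of progenitor-gate barcodes, with 95% counting intervals. The points of Zbtb16, Tsc22d3, Fkbp5, Klf9, Dusp1, Hsd11b1 and Errfi1 lie right of 0 in each subset. Not every interval does: that of Fkbp5 holds 0 in barcodes with 0 Pi16 and Dpp4 UMIs. Sgk1 splits between barcodes with 0 and with at least 2 Pi16 and Dpp4 UMIs.

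Other genes of the pathway were read from lists by role in progenitor-gate barcodes. These lists too were chosen with earlier results of these data known. Of 24 measured genes of 36 known to be induced by glucocorticoids, 8 were at least 1.5-fold higher and 2 lower for the diet in Cth-/- (median log2 ratio 0.44), and 0 higher and 3 lower in Cth+/+ (-0.12). Of all measured genes, 7.15% were higher and 9.73% lower in Cth-/-, and 0.802% and 1.12% in Cth+/+, shares that hold beside the other lists too. Highest were Txnip, a thioredoxin-binding protein that limits glucose uptake (857 against 347 CPM, 1.30), Glul, glutamine synthetase (362 against 156, 1.21), and Apod, the lipid carrier apolipoprotein D (861 against 414, 1.05). Lower were Tgm2, a transglutaminase (17.2 against 61.7, -1.79), and Bcl6, a transcriptional repressor (-0.82). For the loss of Cth on the cystine-free diet 14 of the 24 were higher and 1 lower (median 0.71), where 10% and 11% of genes were. For the diet in Cth-/-, 5 were higher and 1 lower of 26 in the endothelial gate (0.041). The phagocyte gate had 7 and 1 of 27 (0.11) and the Rgs5 and Notch3 gate 14 and 4 of 27 (0.60). The T cell gate had 3 and 10 of 23 (-0.15) and the epithelial gate 5 and 4 of 26 (0.22). Shares of all genes in these gates are given below. Of 11 measured genes of 15 known to be repressed by glucocorticoids, 3 were higher and 3 lower (median 0.31). Ptgs2, the inducible cyclooxygenase (1.14), the cytokine Il6 (0.94) and the chemokine Ccl7 (0.63) were higher, and Mmp3, a matrix protease (-0.96), Il1b (-0.85) and the adhesion molecule Vcam1 (-0.80) lower. In this gate those past the fold were split between both directions. For the loss of Cth on the cystine-free diet 7 were higher and 3 lower here (median 0.87), where 10% and 11% of genes were. For the diet in Cth-/-, 2 were higher and 5 lower in the T cell gate (median -0.40) and in the Rgs5 and Notch3 gate (0.028). Of all genes, 15% and 16.2% were higher and 20.8% and 11.5% lower there. In the endothelial gate 0 were higher and 8 lower of 12 (median -0.80), in the epithelial 0 and 8 of 12 (-1.21) and in the phagocyte 0 and 5 of 12 (-0.44). Of all genes, 8.72%, 8.96% and 7.14% were lower in the endothelial, epithelial and phagocyte gates, and 4.54%, 8.63% and 4.47% higher. For the loss of Cth on the control diet, the counts higher and lower in these gates were 8 and 0 (median 0.83), 7 and 1 (0.77) and 0 and 0 (0.14). Of all genes, 4.63%, 4.25% and 2.09% were higher there. On the cystine-free diet these counts were 2 and 3 (0.095), 1 and 6 (-0.58) and 0 and 4 (0.024). Of all genes, 10.1%, 11.8% and 8.9% were higher there and 11.6%, 9.91% and 6.34% lower.

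Immediate early genes were higher in the same comparison, 9 of 20 by at least 1.5-fold and 1 lower (median 0.51; 0 and 0 in Cth+/+, median 0.024). The largest ratios were those of the transcription factors Klf4 (1.11), Klf2 (0.89) and Atf3 (0.85), and Egr2 was lower (-0.66). Their median is close to that of the 10 members, 0.57, and the part of digestion in the members' ratios was not tested beyond the subsets above. Of 10 measured clock genes of 15, 3 were higher and 2 lower (median 0.084). Cry2, a repressor of the clock (0.84), Tef (0.73) and Nr1d2 (0.65) were higher and Bhlhe41 (4.24 against 20.9 CPM, -2.06) and Bhlhe40 (-0.65), both repressors of clock output, lower.

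**Figure D5:**
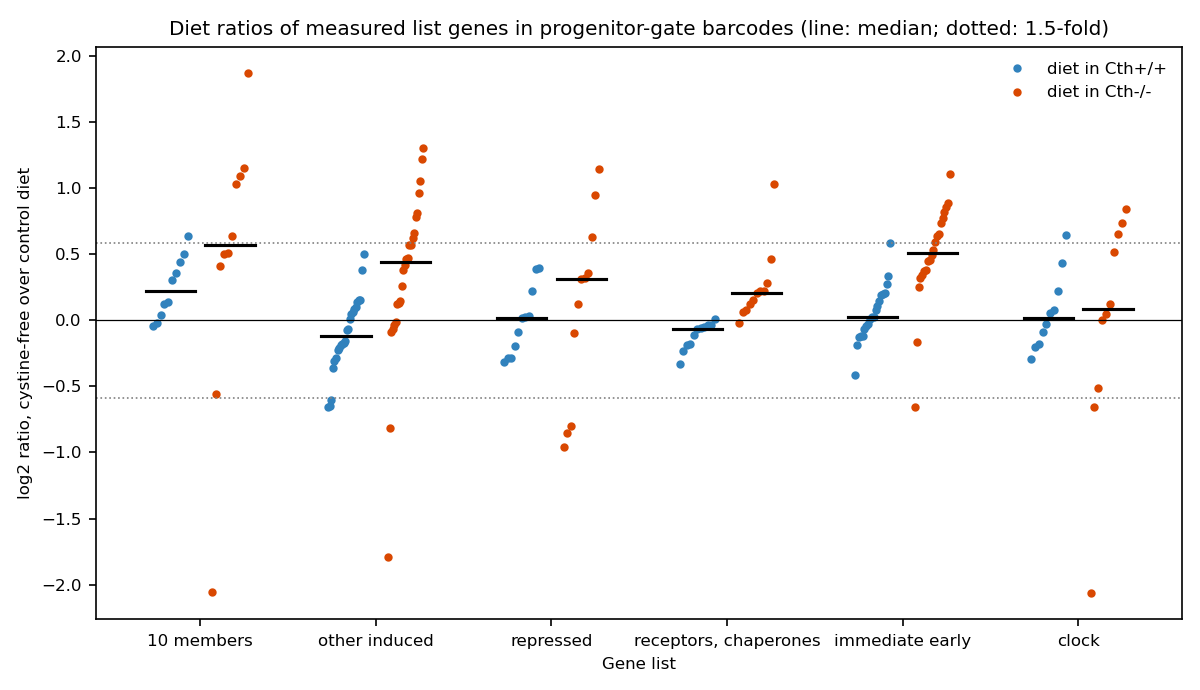
Log2 ratios of the cystine-free over the control diet for each measured gene of 6 lists in progenitor-gate barcodes, in Cth+/+ (blue) and Cth-/- (orange), with a black line at each median and dotted lines at 1.5-fold. The Cth-/- median lies above the Cth+/+ median in each of the 6 lists. The Cth-/- medians are 0.57 for the members, 0.44 for other induced, 0.31 for repressed and 0.51 for immediate early genes. They are 0.20 for receptors and chaperones and 0.084 for clock genes.

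The pattern of 3 members over the 4 libraries and 6 gates, 24 points each centred on the gate's mean log2 level, was set against 6012 genes with a mean of at least 20 CPM. The points share libraries and, in part, barcodes, so the Pearson coefficients are descriptions. Zbtb16 and Fkbp5 themselves lay under that minimum, with gate means of 3.98 to 12.2 and 6.15 to 17.2 CPM. Some of their points rest on few UMIs, and counting error enters their coefficients. Zbtb16 was most like Hspa8, Mknk2, Synrg and Eif1 (0.85 to 0.81), of which Hspa8 is a chaperone of the Hsp70 family. Tsc22d3 was most like Rgcc, Ubb, Hspb1, Fmo2 and Hspa8 (0.84 to 0.77), and Fkbp5 most like Dennd5b, Mlxip, Kif13a, Mfap1b and Ppfibp1 (0.85 to 0.82). Among the members themselves the coefficient with Zbtb16 was 0.68 for Dusp1, 0.66 for Sgk1, 0.62 for Tsc22d3, 0.36 for Fkbp5 and -0.50 for Cdkn1c, and that of Tsc22d3 with Fkbp5 was 0.60.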

How the data were processed

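Single cells of the 4 samples were profiled with 10x Genomics 3′ droplet chemistry. Per the submitters' processing notes and the file headers, the authors used Cell Ranger (3.0.0) and the mm10 build, and deposited raw UMI counts per gene and barcode, with cells already called; further filters and the use of strand are not given in the sources used here. All deposited barcodes were kept, and doublets were not called (barcodes that met more than 1 gate were left out as an alternative). UMIs were summed per gate and library and scaled to 1000000 (CPM). Gates beside the Dcn share were at least 3 UMIs of Cdh5, Pecam1 and Cldn5 (endothelial), 4 of Csf1r, Cd68 and Lyz2 (phagocyte), 2 of Cd3d, Cd3e and Cd3g (T cell), 4 of Rgs5 and Notch3, and 5 of Krt8 and Krt18 (epithelial). A barcode could meet several gates. Log2 ratios used a pseudocount of 1 CPM. Their 95% intervals are exact conditional binomial intervals of the 2 UMI counts without the pseudocount, those of differences of ratios are normal approximations from the 4 counts, and intervals of shares are Clopper-Pearson; intervals and floors cover counting error only. A gene counted as measured in a gate at a mean of at least 10 CPM over the 4 libraries. The interval code was tested on simulated data. Thinning drew 1000 UMIs per barcode (seed 1). The members and gene lists were chosen with earlier results of these data known. Members were all described; from each list at most the 3 genes with the largest ratio in each direction past 1.5-fold and Nr3c1 were named, and for likeness the 5 genes with the highest coefficient, of which 1 is not reported here. Of the listed names, H6pdh and Sdpr had no match. Alternatives were other gates, subsets, filters on barcodes (500 UMIs, 300 genes, 10% mitochondrial UMIs; shared barcode sequences), weighting, thinning, scaling, pseudocount and fold. Python 3.11.15, numpy 2.4.6, scipy 1.17.1 and pandas 2.3.3 were used.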

Additional observations from a re-analysis of the deposited data

Results flagged for a closer look

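Over the 10 members and 6 gates, the diet ratios of the 2 genotypes had opposite signs, with counting intervals that both exclude 0, in 3 cases. Opposite signs with an interval that holds 0 were not listed. With 1 library per group the difference between the genotypes was not tested. In progenitor-gate barcodes the log2 diet ratio of Per1 was 0.64 in Cth+/+ and -0.56 in Cth-/-. That of Cdkn1c was 0.50 in Cth+/+ and -2.05 in Cth-/-. In phagocyte-gate barcodes that of Dusp1 was -0.22 in Cth+/+ and 0.59 in Cth-/-.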

How the results depend on the processing

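Over 14 alternatives, 1 of them chosen after seeing the data, the diet ratio of progenitor-gate barcodes in Cth-/- kept its direction for Zbtb16 (1.47 to 2.03 on the log2 scale), Tsc22d3 (0.71 to 1.58), Fkbp5 (0.46 to 1.32), Errfi1 (0.28 to 1.14) and Cdkn1c (-2.61 to -1.20). The same held for Dusp1 (0.27 to 0.58), Hsd11b1 (0.16 to 0.70), Klf9 (0.065 to 0.65) and Per1 (-1.14 to -0.036), and not for Sgk1. The members' median for this comparison, 0.57, became 0.67 in barcodes with 0 Pi16 and Dpp4 UMIs, 0.28 over all barcodes of the libraries, 0.44 at lower immediate early shares, 0.72 as a mean over barcodes and 0.70 after thinning. For the loss of Cth on the cystine-free diet the median of 0.45 became 0.74 with 0 and 0.34 with at least 2 Pi16 and Dpp4 UMIs, and 0.54 after thinning. The count of members at least 1.5-fold higher changed from 5 to 3 over all barcodes for the diet in Cth-/-, to 4 at 2-fold, with at least 2 Pi16 and Dpp4 UMIs or at lower immediate early shares, and to 6 after thinning. For the diet in Cth+/+ it changed from 1 to 0 with 0 Pi16 and Dpp4 UMIs, 2-fold, a Pdgfra gate, all barcodes or a mean over barcodes, to 3 with at least 2 Pi16 and Dpp4 UMIs and to 2 at lower immediate early shares. For the loss of Cth on the control diet it changed from 2 to 1 with 0 Pi16 and Dpp4 UMIs, the Pdgfra gate, lower immediate early shares or a pseudocount of 5, to 0 at 2-fold and to 4 after thinning. On the cystine-free diet it changed from 4 to 7 with 0 Pi16 and Dpp4 UMIs and to 2 at 2-fold. Further changes in these last 2 counts, of 1 member and by no more than 1.5 times, are not listed. Ratios whose own interval excluded 0 changed sign for Sgk1 and Hsd11b1. Sgk1 reached -0.12 (diet in Cth-/-, at least 2 Pi16 and Dpp4 UMIs), -0.092, -0.0082 and -0.014 (diet in Cth+/+, at least 2 Pi16 and Dpp4 UMIs, all barcodes and lower immediate early shares) and -0.058 (loss of Cth on the control diet, all barcodes). Hsd11b1 in that last comparison reached 0.024 and 0.021 with 0 and at least 2 Pi16 and Dpp4 UMIs and 0.23 over all barcodes. Ratios whose interval held 0 also changed sign: Dusp1 (-0.093 to 0.094), Fkbp5 (-0.017 to 0.11) and Hsd11b1 (-0.19 to 0.48) for the diet in Cth+/+, and Fkbp5 (-0.19 to 0.25) for the loss of Cth on the control diet. The cause was not tested in any of these. No paired analysis was possible because each group had 1 library, and for the same reason no library could be left out. Depth limits Zbtb16 and Fkbp5 most, above all in the small gates, and whether a difference would recur in other animals cannot be told from these libraries.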

Other observations

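Barcodes of no gate held 34972 CPM of adipocyte markers in the Cth-/- cystine-free library and 182 to 1013 in the other 3. In these barcodes Fkbp5 stood at 6.69, 8.63, 15.5 and 22.5 CPM, Tsc22d3 at 83.8, 103, 97.0 and 66.6 and Hsd11b1 at 16.9, 17.9, 24.1 and 213, in the order of libraries used above. The Cth-/- cystine-free library was the highest for Fkbp5 and Hsd11b1 and the lowest for Tsc22d3.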
